A study of Mus musculus with 4 samples.

Results

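The genes for acute phase plasma proteins other than serum amyloid A were followed through 4 liver libraries. They were taken from the read count table by name, and all 10 of the genes asked for (Orm1, Orm2, Orm3, Hp, Hpx, Lcn2, Apcs, Crp, Lbp and Cd14) were found among its 35275 listed genes, each on 1 row. The libraries were VS (vehicle-injected, sedentary), VI (vehicle-injected, interval training, IT), FS (injected with AApoAII amyloid fibrils, sedentary) and FI (fibril-injected, IT). All mice were female, carried the amyloidogenic Apoa2c allele, and were sampled at 26 weeks of age after 16 weeks of treadmill running or cage rest. Fibril groups had received 1 μg of fibrils at 10 weeks of age, and vehicle groups phosphate-buffered saline. The paper names the strain R1.P1-Apoa2c, on a SAMR1 background, whereas the labels give AKR/J. Livers of 4 mice were pooled per group before RNA extraction, so each group is 1 library, no value below has a replicate error, and differences between mice cannot be seen. In bulk tissue, fewer cells of a type and less RNA per cell cannot be told apart.

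The acute phase response is the change in plasma protein synthesis by which the liver answers inflammation or tissue damage. Cytokines of the IL-6 and IL-1 families reach hepatocytes, act through STAT3, C/EBP and NF-κB factors together with glucocorticoids, and raise the transcription of a set of secreted proteins. Among those described here, the orosomucoids (Orm1 to Orm3, α1-acid glycoproteins) bind drugs and small lipophilic molecules, Lcn2 (lipocalin 2) captures bacterial siderophores and thereby withholds iron, Hp (haptoglobin) binds free hemoglobin and Hpx (hemopexin) binds free heme. Apcs (serum amyloid P component) and Crp (C-reactive protein) are pentraxins. In mice, Apcs is the acute phase pentraxin, whereas CRP is the classical one in humans, and serum amyloid P component is a known constituent of amyloid deposits of many types. Lbp and Cd14 hand lipopolysaccharide to its receptor complex, and Cd14 is also a marker of monocytes and macrophages.

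Orm2 and Lcn2 had the widest range of levels of these genes, and Orm3 lies beside Orm2 with a smaller range, so the 250 bases before the RefSeq start of each are shown. They are taken from the RefSeq promoter table on GRCm38.p6, which held 6 of the 10 genes (Orm2, Orm3, Hpx, Lcn2, Apcs and Crp), and are written 5′ to 3′ on the strand of the gene, with matches to a relaxed C/EBP motif, TTNNGNAA on either strand, in capitals.
Orm2 (chr4:63362199-63362448, + strand): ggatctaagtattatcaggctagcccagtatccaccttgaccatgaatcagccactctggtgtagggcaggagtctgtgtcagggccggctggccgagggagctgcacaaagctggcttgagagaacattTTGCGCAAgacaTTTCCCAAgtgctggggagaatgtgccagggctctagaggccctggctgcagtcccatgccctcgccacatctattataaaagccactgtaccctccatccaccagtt
Orm3 (chr4:63355908-63356157, + strand): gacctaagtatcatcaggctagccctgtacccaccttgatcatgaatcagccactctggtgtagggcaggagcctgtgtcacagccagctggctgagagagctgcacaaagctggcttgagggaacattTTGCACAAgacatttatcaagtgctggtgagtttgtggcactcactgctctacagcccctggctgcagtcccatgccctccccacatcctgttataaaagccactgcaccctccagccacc
Lcn2 (chr2:32387740-32387989, - strand): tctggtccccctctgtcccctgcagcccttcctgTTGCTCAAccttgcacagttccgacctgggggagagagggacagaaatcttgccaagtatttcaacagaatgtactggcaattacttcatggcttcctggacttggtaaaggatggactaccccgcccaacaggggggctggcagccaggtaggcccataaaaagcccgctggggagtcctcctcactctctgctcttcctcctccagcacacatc

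The windows of Orm2 and Orm3 were identical at 218 of 255 aligned positions (85.5%). The match TTGCGCAA, from 120 to 113 bases before the Orm2 start, was the only strict C/EBP match (TTGCGNAA, either strand) in the 6 windows. Such a match occurred in 0.670% of the 32851 promoter windows in the table. At the aligned place in Orm3 the sequence carried the substitution G5A, counted from 1 at the first base of the Orm2 match, which leaves a relaxed match. Relaxed matches were present in 5 of the 6 windows and in 36.9% of all windows, and every strict match is also a relaxed one. The STAT3 motif TTCNNNGAA, searched on either strand, was found in the Apcs window, and it occurs in 7.02% of all windows. None of the 6 windows held the NF-κB motif, which 7.25% of all windows did. These are letter matches, and binding of a factor was not measured. The Lcn2 gene listed with the counts begins at 32387797 on the - strand, inside the Lcn2 window. In GENCODE M21 the gene begins at 32388252, so the whole window lies within it there.

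Library totals were between 23442935 and 28814802 counts, and a count of 0 in a library allows up to 3 counts, or 0.102 to 0.127 CPM (counts scaled to a common library total). Levels are given in CPM scaled by the TMM method, and intervals are 95% counting intervals, which cover neither mice nor pools and treat reads as independent molecules. Of the 16 hepatocyte markers listed, all passed 1 CPM, with a sum between 174100 CPM in VS and 198700 CPM in FI. Most of that sum was albumin (Alb), with 119865 CPM in VS and 135778 CPM in FI. Single markers ranged from a log2 ratio of −0.90 for Cyp2e1 to 1.78 for Tat in FS against VS. Skeletal muscle markers stood apart in VS, summing to 78.5 CPM over 13 genes, where VI, FS and FI had 10.2, 1.12 and 1.07 CPM. Of the 4 muscle genes in the model described below, Acta1, Mb and Tnnt3 fell with both factors and Mylpf did not pass. Over all genes, 2.17% fell with amyloidosis and 0.714% with IT. The adipocyte list of 9 genes summed to 1392, 546, 646 and 435 CPM in VS, VI, FS and FI, nearly all of it Car3, which liver also expresses. The part of the muscle and adipocyte genes in the results was not tested. It touches FI against VI as well, whereas FI and FS both had little of it. In FI against VI all 11 muscle genes above 1 CPM in any library were more than 2-fold lower (median log2 ratio −3.91), as were 1.95% of all genes. Most of the 11 reached 1 CPM only in VS, and Myh4 and Pvalb had 1 count in VI and 0 in FI. That count and median therefore rest in part on genes near 0, and the sums were 10.2 CPM in VI and 1.07 CPM in FI. None of the 10 genes overlaps another gene of GENCODE M21 at the positions listed with the counts.

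All 10 genes had more than 1 CPM in every library, and their summed share of the counts was 0.847%, 1.20%, 1.79% and 1.92% in VS, VI, FS and FI. Compared per length, in the deposited FPKM, Hp and Hpx were the most abundant, with 2617 and 2589.5 FPKM in VS and 5826 and 5514 FPKM in FI. Hp and Hpx ranked 21 and 23 among all genes in VS, and 9 and 10 in FI. Orm1 and Apcs followed in every library, and Cd14 was the lowest throughout, with 2.12 FPKM in VS and 14.5 FPKM in FI. The place of Lcn2 in this order changed most, from rank 5881 of all genes in VS to 1820 in VI, 258 in FS and 179 in FI. In VS, Lcn2 lay above only Cd14 among the 10 genes, and in FI it lay above Crp, Lbp, Orm2, Orm3 and Cd14.

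**Figure D1:**
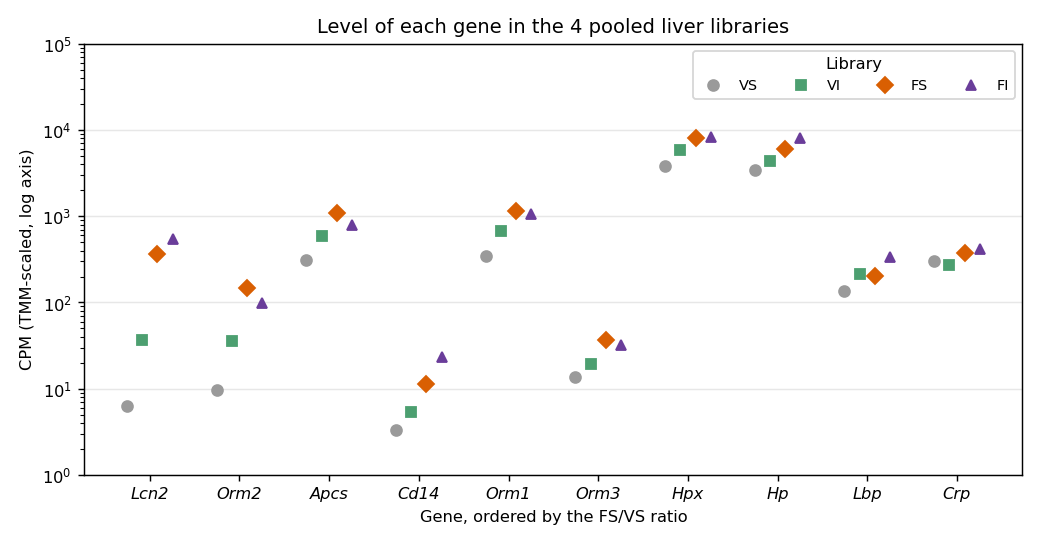
Level in CPM (log axis) of each gene in VS, VI, FS and FI, 1 pooled library per group, with genes ordered by the ratio of FS to VS. VS is the lowest library for every gene except Crp, whose lowest value is 269 CPM in VI.

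Fibril-injected livers were first compared with vehicle livers, to see which plasma protein genes accompanied amyloidosis. In FS each of the 10 exceeded its VS value, with a median log2 ratio of 1.58 against 0.02 over the 12180 genes that reached 1 CPM in any library. More than 2-fold differences were found for 7 of them, all higher (Lcn2, Orm2, Apcs, Orm1, Cd14, Orm3 and Hpx), where 3.60% of all genes were that much higher and 2.18% that much lower. In FI each of them also exceeded its VI value, a pair that shares no library with the former, with a median of 0.71 against 0.01 over all genes. Lcn2, Cd14 and Orm2 exceeded 2-fold there, against 2.59% of all genes higher and 1.95% lower.

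IT was compared with rest in vehicle livers, and 9 of the 10 genes were higher in VI than in VS, all but Crp. The median log2 ratio was 0.67, and Lcn2 and Orm2 exceeded 2-fold, against 1.54% of all genes higher and 1.90% lower. In fibril livers, by contrast, the 10 genes split. Cd14, Lbp, Lcn2, Hp and Crp were higher in FI than in FS, Orm2, Apcs, Orm3 and Orm1 were lower, and Hpx had a log2 ratio of 0.06 that became −0.01 when libraries were scaled by total counts. The median was 0.12. Only Cd14 exceeded 2-fold, against 1.72% of all genes higher and 2.54% lower, and with total counts as the scale no gene of the 10 did. The comparisons of VI with VS and of FS with VS share the VS library, as those of FI with FS and of FI with VI share FI. The paper reports less amyloid in the liver of fibril-injected mice after IT than at rest. FI and FS may therefore differ in amyloid load as well as in IT, and the 2 cannot be told apart here.

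**Figure D2:**
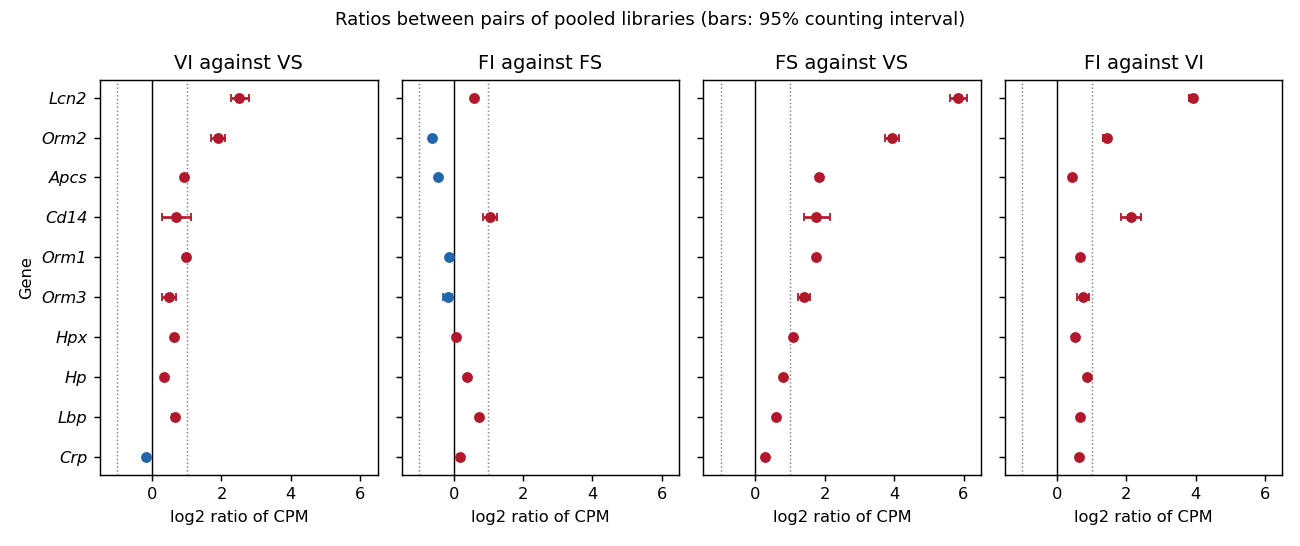
Log2 ratios of CPM for each gene in the 4 pairs of libraries, with 95% counting intervals (bars, often narrower than the point) and dotted lines at 2-fold. All points lie above 0 for FS against VS and for FI against VI, and Orm2, Apcs, Orm1 and Orm3 lie below 0 for FI against FS.

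The orosomucoid genes lie next to each other on chromosome 4 (mm10, + strand), Orm1 (ENSMUSG00000039196) from 63344560 to 63348163, Orm3 (ENSMUSG00000028359) from 63356162 to 63359511 and Orm2 (ENSMUSG00000061540) from 63362449 to 63365878, each with 6 exons. Orm1, the main form, had 344, 672, 1165 and 1059 CPM in VS, VI, FS and FI. It was 1.96-fold higher in VI than in VS and 3.39-fold higher in FS than in VS, log2 ratios of 0.97 (0.93 to 1.01) and 1.76 (1.73 to 1.80). Both fibril libraries were above both vehicle libraries, and FI was slightly below FS, by a log2 ratio of −0.14 (−0.16 to −0.11).

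Orm2 had 9.70, 36.1, 149 and 97.4 CPM in VS, VI, FS and FI. Its log2 ratio was 3.94 (3.75 to 4.14) in FS against VS and 1.89 (1.68 to 2.11) in VI against VS, 15.3-fold and 3.71-fold. The order of the libraries was that of Orm1, but the span was wider, and FI was below FS by a log2 ratio of −0.61 (−0.69 to −0.54). Orm3 had 13.8, 19.2, 36.4 and 32.3 CPM in VS, VI, FS and FI, with log2 ratios of 1.40 (1.22 to 1.59) in FS against VS and −0.17 (−0.31 to −0.04) in FI against FS.

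Ratios within a library do not depend on its scaling, and the make-up of the Orm counts differed between libraries. Orm2 made up 2.64% (exact binomial 95% interval 2.32% to 3.002%) of the 8667 Orm counts in VS and 4.96% (4.65% to 5.29%) of 17719 in VI. In FS its share was 11.04% (10.7% to 11.3%) of 39860 counts, and in FI 8.19% (7.88% to 8.52%) of 28755. Orm1 thus had 35.4 times the counts of Orm2 in VS and 7.82 times in FS. The share of Orm3 was 3.75% (3.36% to 4.17%) in VS and between 2.64% and 2.72% in the other libraries, so Orm3 was above Orm2 in VS and below it elsewhere.

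**Figure D3:**
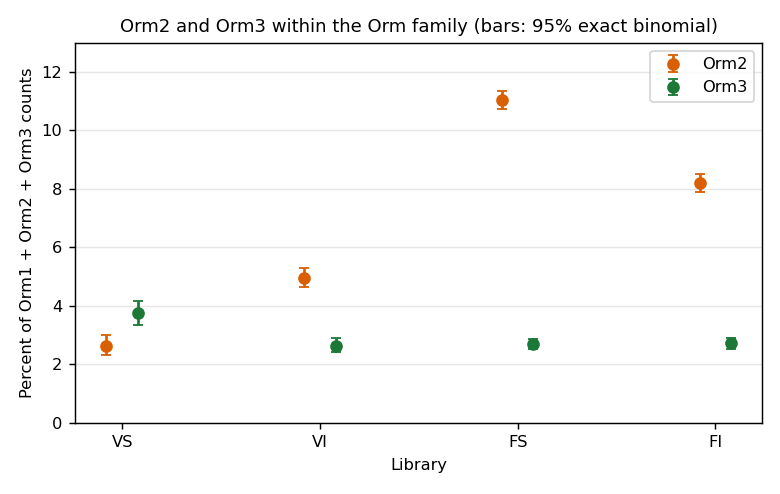
Percent of the summed Orm1, Orm2 and Orm3 counts that fell on Orm2 (orange) and on Orm3 (green) in each library, with exact binomial 95% intervals. Orm2 goes from 2.64% in VS to 11.04% in FS, while Orm3 stays between 2.64% and 3.75%.

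The transcripts of the Orm genes are alike, and the counting of reads that fit several copies is not described in the sources used here. In GENCODE M21, Orm1 and Orm2 were identical at 91.0% of 775 aligned positions, Orm1 and Orm3 at 86.1% and Orm2 and Orm3 at 88.0%. Of all 100-base windows of the transcript, 6.95% of those of Orm1 and 6.95% of those of Orm2 occur in another copy, and none of those of Orm3. No 150-base window of any of them is shared, and at 50 bases 20.4% of Orm1, 21.8% of Orm2 and 3.59% of Orm3 windows are. Read length, too, is not described there, so the values of single copies are uncertain to that extent.

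Lcn2 (ENSMUSG00000026822, chromosome 2, 32384633 to 32387797, - strand, 6 exons) had the widest range. Its counts were 150, 888, 10829 and 13283 (VS, VI, FS, FI), that is 6.35, 36.5, 367 and 549 CPM. It was 57.6-fold higher in FS than in VS, a log2 ratio of 5.85 (5.62 to 6.09), and 15.1-fold higher in FI than in VI, 3.91 (3.81 to 4.01). Already in trained vehicle livers it was 5.72-fold higher than at rest, 2.52 (2.27 to 2.78), and in fibril livers IT went with a further 1.497-fold, 0.58 (0.55 to 0.62). Unlike Orm2, Lcn2 was therefore highest in FI.

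Lcn2 is also a neutrophil granule protein, so a list of 16 neutrophil markers is given beside it. Their sum was 42.1, 37.5, 93.2 and 69.0 CPM in VS, VI, FS and FI, of which the lysozyme gene Lyz2, shared with macrophages, took 37.7, 32.4, 71.1 and 53.7 CPM. Only 5 of the 16 passed 1 CPM in a library, and all 5 were higher in FS than in VS, with a median log2 ratio of 1.04. They were Prtn3 with 4.42, S100a8 with 1.29, S100a9 with 1.04, Csf3r with 1.04 and Lyz2 with 0.91. S100a8 reached 1 CPM only in the fibril libraries, with 0.889 CPM in VS and 2.20 CPM in FS. The filter thus favors genes that are higher there, and the shared direction was partly set by it. In FI against FS all 5 were lower, with a median of −0.40, while Lcn2 was higher. The counting intervals of S100a8 (−0.98 to 0.21) and S100a9 (−1.21 to 0.17) include 0 there, and those of Prtn3, Csf3r and Lyz2 do not. The granule genes Ltf, Camp, Ngp and Mpo had at most 3 counts in any library, and Ctsg and Fcnb had none. Also below 1 CPM, Retnlg had 1, 9, 28 and 15 counts and Cxcr2 5, 0, 13 and 6 (VS, VI, FS, FI). In the same order, Elane had 3, 0, 5 and 0 counts, Mmp8 1, 1, 6 and 1, and Ly6g 2, 3, 3 and 1. By the edgeR model described below, Prtn3 rose with amyloidosis by a log2 change of 3.75 (SE 0.31, adjusted p = 0.0015) and Lyz2 by 0.82 (SE 0.12, adjusted p = 0.0085), and the other 3 did not pass. Over all genes, 2.81% rose with amyloidosis. What part neutrophils have in the Lcn2 values was not tested. Prtn3 had 0.593, 1.11, 13.1 and 10.1 CPM in VS, VI, FS and FI.

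The scavengers of hemoglobin and heme are among the most abundant transcripts of liver. Hp (ENSMUSG00000031722, chromosome 8, 109575130 to 109579172, - strand, 5 exons) had 3489, 4386, 6099.9 and 8022 CPM in VS, VI, FS and FI. Each of its 4 log2 ratios was above 0, with 0.33 (0.32 to 0.34) for VI against VS, 0.40 (0.39 to 0.40) for FI against FS, 0.81 (0.79 to 0.82) for FS against VS and 0.87 (0.86 to 0.88) for FI against VI. The ratio with IT was thus of similar size in vehicle and fibril livers, and so was the ratio with fibrils at rest and with IT.

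Hpx (ENSMUSG00000030895, chromosome 7, 105591613 to 105600116, - strand, 10 exons) had 3799, 5837, 8015 and 8355 CPM in VS, VI, FS and FI. In vehicle livers IT went with a larger ratio for Hpx than for Hp, a log2 ratio of 0.62 (0.61 to 0.63), whereas FS and FI were nearly level. In FPKM, the ratio of Hpx to Hp was 0.989, 1.21, 1.19 and 0.946 in VS, VI, FS and FI. Hp was therefore the more abundant of both per length in VS and FI, and Hpx in VI and FS.

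Both pentraxin genes lie on chromosome 1 and differed. Apcs (ENSMUSG00000026542, 172893962 to 172895054, - strand, 2 exons) had 308, 584, 1090.2 and 798 CPM in VS, VI, FS and FI. It was 3.54-fold higher in FS than in VS, a log2 ratio of 1.82 (1.79 to 1.86), and 1.90-fold higher in VI than in VS, 0.92 (0.88 to 0.96). FI was below FS by −0.45 (−0.48 to −0.42), so the highest library was the sedentary one with fibrils.

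Crp (ENSMUSG00000037942, 172698056 to 172699966, + strand, 2 exons) had the narrowest range of the 10 genes, with 302, 269, 371 and 419 CPM in VS, VI, FS and FI. Compared with VS, VI had a log2 ratio of −0.17 (−0.22 to −0.12) and FS one of 0.29 (0.25 to 0.34), and FI against FS had 0.18 (0.14 to 0.22). In FPKM, Apcs had 1.76 times the level of Crp in VS, 3.75 times in VI, 5.08 times in FS and 3.29 times in FI.

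The genes that present lipopolysaccharide were highest in FI. Lbp (ENSMUSG00000016024, chromosome 2, 158306493 to 158332852, + strand, 15 exons) had 135, 212, 203 and 336 CPM in VS, VI, FS and FI. Its log2 ratios with IT were 0.65 (0.59 to 0.71) in vehicle and 0.73 (0.68 to 0.77) in fibril livers, and with fibrils 0.59 (0.53 to 0.65) at rest and 0.66 (0.61 to 0.72) with IT. Lbp was the gene for which the values of VI and FS were nearest.

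Cd14 (ENSMUSG00000051439, chromosome 18, 36725074 to 36726736, - strand, 2 exons) was low, with 78, 130, 332 and 565 counts (VS, VI, FS, FI), or 3.30, 5.34, 11.2 and 23.4 CPM. Its log2 ratio was 1.76 (1.41 to 2.14) in FS against VS and 2.13 (1.85 to 2.42) in FI against VI. With IT it was 0.69 (0.28 to 1.12) in vehicle and 1.05 (0.86 to 1.25) in fibril livers, the latter 2.08-fold. The libraries stood in the order VS, VI, FS and FI, as for Lcn2 and Hp. Hpx had this order with TMM scaling but not with total counts.

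Since Cd14 is also a macrophage gene, 16 Kupffer cell and macrophage markers are given beside it. Their sum was 446, 540, 599 and 537 CPM in VS, VI, FS and FI, and 14 of them passed 1 CPM. In FS against VS all 14 were higher, with a median log2 ratio of 0.67, and in FI against FS 8 were higher and 6 lower, with a median of 0.06. Itgam reached 1 CPM only in the fibril libraries, with 0.932 CPM in VS and 1.35 CPM in FS. The filter thus partly set the shared direction in FS against VS. The Kupffer cell marker Clec4f had 93.5, 109, 126 and 136 CPM in VS, VI, FS and FI. Only Marco and Cd163 of the 14 passed the test for amyloidosis described below, both higher, where 2.81% of all genes rose. What part cell numbers have in the Cd14 values was not tested.

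With 1 library per group, a test across all genes needs a model in which the effects of amyloidosis and IT add up on the log scale. It leaves 1 residual degree of freedom, which is their interaction, so the error is large for a gene that responds to IT unequally with vehicle and with fibrils. The amyloidosis term treats FS and FI as alike, although the paper reports less liver amyloid with IT, so it stands for fibril injection and not for equal amyloid load. With edgeR's quasi-likelihood test and Benjamini-Hochberg adjustment over 11760 genes, 5 of the 10 genes rose with amyloidosis at an adjusted p below 0.05 and none fell, where 2.81% of all genes rose and 2.17% fell. They were Cd14 (log2 change 1.96, SE 0.18, adjusted p = 0.0017), Orm3 (1.07, SE 0.17, adjusted p = 0.014), Hp (0.83, SE 0.15, adjusted p = 0.020), Lbp (0.62, SE 0.12, adjusted p = 0.022) and Hpx (0.79, SE 0.18, adjusted p = 0.046). The call of Hpx was lost when TMM factors were computed over all listed genes (adjusted p = 0.051) or genes below 5 CPM were left out (adjusted p = 0.064).

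The other 5 genes did not pass in this model, among them Lcn2 and Orm2, which had the largest ratios of FS to VS. Lcn2 had a log2 change with amyloidosis of 4.79 (SE 0.64, adjusted p = 0.073), Orm2 of 2.61 (SE 0.88, adjusted p = 0.29), Apcs of 1.13 (SE 0.35, adjusted p = 0.17), Orm1 of 1.20 (SE 0.26, adjusted p = 0.0504) and Crp of 0.46 (SE 0.14, adjusted p = 0.095). Each of them was higher in both fibril libraries than in the vehicle library of the same training. With IT, Lbp rose by a log2 change of 0.69 (SE 0.12, adjusted p = 0.031) and Cd14 by 0.91 (SE 0.17, adjusted p = 0.044), where 0.765% of all genes rose and 0.714% fell. The call of Cd14 for IT was lost with DESeq2 (adjusted p = 0.095), at a minimum of 5 CPM (adjusted p = 0.072) and with TMM over all listed genes (adjusted p = 0.054), and that of Lbp at a minimum of 5 CPM (adjusted p = 0.053). The other 8 genes did not pass for IT, with adjusted p between 0.32 for Hp and 0.99 for Crp.

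The interaction itself has no test here, but its size can be given with a counting interval, as the log2 ratio of FI to FS minus that of VI to VS. It was −2.51 (−2.73 to −2.29) for Orm2, −1.94 (−2.19 to −1.68) for Lcn2, −1.37 (−1.42 to −1.33) for Apcs and −1.11 (−1.15 to −1.06) for Orm1. For these genes the ratio with IT was smaller in fibril than in vehicle livers, and the ratio with fibrils was smaller in trained than in sedentary livers by the same amount. Orm3 and Hpx had −0.65 (−0.90 to −0.41) and −0.56 (−0.57 to −0.54).

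Hp, Lbp and Cd14 had values near or above 0, of 0.07 (0.05 to 0.08), 0.08 (−0.00 to 0.15) and 0.36 (−0.09 to 0.81), and Crp had 0.35 (0.28 to 0.41). On the linear scale, Lcn2 reached 549 CPM in FI, where adding the separate increases of VI and FS to the VS level gives 397 CPM, so it was above a sum although below a product of both ratios, which would give 2105 CPM. Orm2, Apcs and Orm1 were below the sum as well, with 97.4, 798 and 1059 CPM against 175, 1366 and 1493 CPM. Hp and Cd14 were above it, with 8022 and 23.4 CPM against 6997 and 13.3 CPM.

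**Figure D4:**
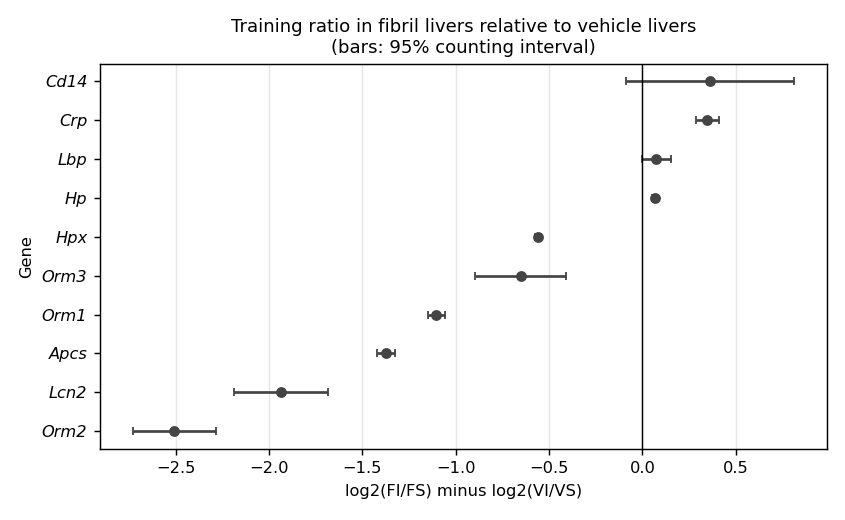
Log2 ratio of FI to FS minus log2 ratio of VI to VS for each gene, with 95% counting intervals. Orm2, Lcn2, Apcs and Orm1 lie below −1, Orm3 and Hpx between −0.65 and −0.56, and Hp, Lbp, Crp and Cd14 at 0.07 or above.

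Other genes that the acute phase raises were read from a list of 36, of which 35 passed 1 CPM. In FS against VS, 30 of these were higher and 5 lower, 13 and 2 of them by more than 2-fold, with a median log2 ratio of 0.65. Over all genes, 3.60% were more than 2-fold higher and 2.18% more than 2-fold lower. In the additive model 14 of the 35 rose with amyloidosis, where 2.81% of all genes did, and none passed for IT. The hepcidin gene Hamp2 and the pantetheinase gene Vnn1 were the 2 that fell, where 2.17% of all genes did. Saa2 and Saa1, which encode serum amyloid A, had the largest ratios, 5.71 and 4.98 on the log2 scale, followed by Lrg1, a secreted leucine-rich glycoprotein, with 2.001. By edgeR's quasi-likelihood test, Lrg1 rose with amyloidosis by 1.62 (SE 0.19, adjusted p = 0.0062).

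Between FI and FS, 21 of the 35 were higher and 14 lower, with a median of 0.14. Saa3, Saa2 and Saa1 had the largest differences, log2 ratios of 1.66, 1.15 and 0.93, and thus stood on the side of Lcn2, Cd14 and Lbp. The fibrinogen chains Fga, Fgb and Fgg had −0.07, −0.31 and −0.17, on the side of the Orm genes and Apcs. Of the 14 plasma protein genes that the acute phase lowers, 9 were lower and 5 higher in FS than in VS, with a median of −0.18. With amyloidosis 2 of them fell by edgeR's quasi-likelihood test, Serpina6, the corticosteroid-binding globulin, by 0.99 (SE 0.18, adjusted p = 0.022) and Igfals, which carries IGF-1 in plasma, by 0.67 (SE 0.14, adjusted p = 0.035). With IT, the transferrin gene Trf fell by 0.74 (SE 0.13, adjusted p = 0.031, same test). Over all genes, 2.17% fell with amyloidosis and 0.714% with IT. Albumin (Alb) was between 119865 and 135778 CPM.

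Receptors, kinases and factors upstream of these genes were listed as 36 names, 1 of which is a second name of another and is not counted, and 29 passed 1 CPM. Their median log2 ratio was 0.27 in FS against VS and 0.05 in FI against FS. With amyloidosis, 4 rose and none fell, namely Il1r1, the IL-1 receptor (1.17, SE 0.15, adjusted p = 0.0068), Cebpd, the factor C/EBPδ (1.18, SE 0.14, adjusted p = 0.0051), the oncostatin M receptor Osmr and Stat3. Il1r1 also rose with IT by 0.86 (SE 0.15, adjusted p = 0.036, all by the edgeR quasi-likelihood model), with 43.0, 95.1, 118 and 177 CPM in VS, VI, FS and FI. Its libraries stood in the order of those of Lcn2 and Cd14. Over all genes, 2.81% rose with amyloidosis and 0.765% with IT.

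Socs3, the feedback inhibitor that STAT3 induces, had 9.53, 12.2, 27.4 and 15.3 CPM in VS, VI, FS and FI. It was highest in FS, as Orm1, Orm2, Orm3 and Apcs were, with a log2 ratio of 1.52 in FS against VS and −0.84 in FI against FS. By edgeR's quasi-likelihood test in the additive model, it did not pass for amyloidosis, at 0.93 (SE 0.27, adjusted p = 0.11). Il6 itself had 1, 0, 6 and 9 counts in VS, VI, FS and FI, below 1 CPM in each library.

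Partners of the 10 proteins were a list of 26, with 21 above 1 CPM and a median log2 ratio of 0.22 in FS against VS. Cd163, the macrophage receptor that takes up hemoglobin, rose with amyloidosis by 1.25 (SE 0.14, adjusted p = 0.0037) and had 9.02, 14.2, 22.9 and 32.3 CPM in VS, VI, FS and FI. The complement genes C1qa and C1qb, whose products bind pentraxins, rose as well, while Bdh2, an enzyme of the mammalian siderophore pathway, fell by 1.04 (SE 0.20, adjusted p = 0.023) and the biliverdin reductase gene Blvrb fell by 0.67 (SE 0.13, adjusted p = 0.022, all by edgeR's quasi-likelihood test). Lrp1, the hemopexin receptor, and Hmox1, which degrades heme, did not pass, with 0.30 and 0.06. Tlr4, the receptor served by Lbp and Cd14, had between 18 and 28 counts per library.

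Genes that glucocorticoids raise in liver, a list of 10 with 9 found, had medians of 0.79 in FS against VS and 0.63 in FI against FS. With amyloidosis 6 of the 9 rose (Ddit4, Tat, Zbtb16, Fkbp5, Sgk1 and Tsc22d3) and with IT 3 rose (Ddit4, Tat and Fkbp5), and none fell with either. Over all genes, 2.81% rose and 2.17% fell with amyloidosis, and 0.765% rose and 0.714% fell with IT. Fkbp5, an immunophilin of the receptor complex, had 100.2, 151, 187 and 368 CPM in VS, VI, FS and FI. These lists are described by counts and medians, and no test compared a list with other genes.

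**Figure D5:**
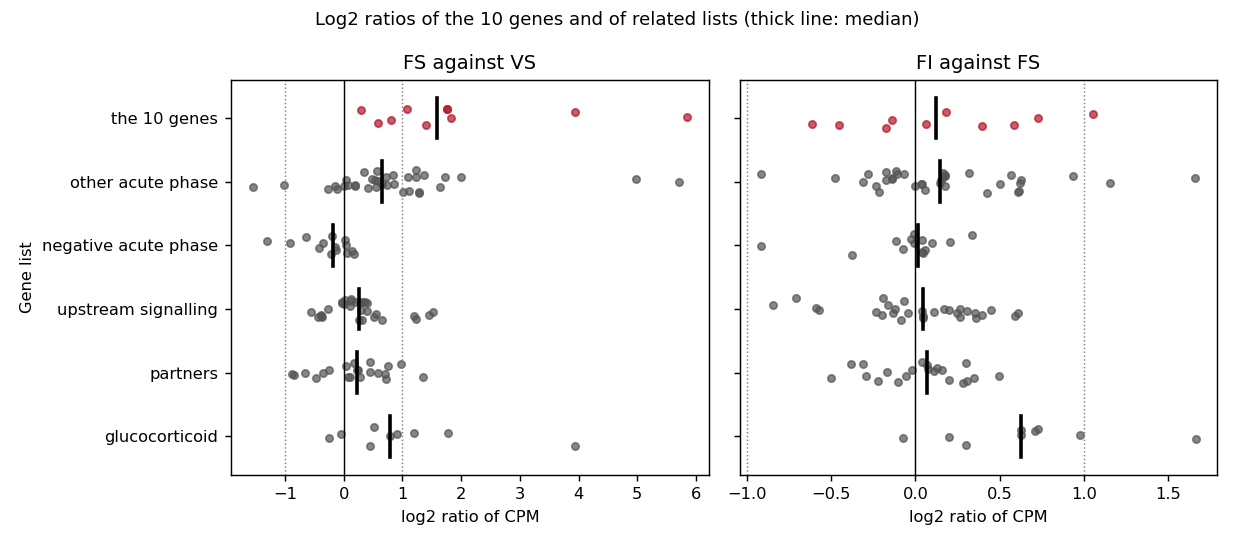
Log2 ratios of the 10 genes (red) and of the genes of related lists (grey) in FS against VS (left) and FI against FS (right), 1 point per gene with at least 1 CPM in a library, thick lines at the median and dotted lines at 2-fold. The 10 genes have medians of 1.58 on the left and 0.12 on the right, and the glucocorticoid list 0.79 and 0.63.

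The pattern of a gene over the 4 libraries was also set against that of 9349 genes with at least 5 CPM in a library, by the Euclidean distance between log2 CPM values centred on their mean. Nearest to Lcn2 were Saa2, at a distance of 0.479, Saa1 at 0.676 and the stress gene Ddit4 at 1.42. Nearest to Orm2 were Sdf2l1, a protein of the endoplasmic reticulum, at 0.809, the magnesium transporter gene Slc41a2 at 0.889 and the phosphatase gene Dusp8 at 0.941. Sdf2l1 had 6.73, 11.4, 69.8 and 42.0 CPM in VS, VI, FS and FI, and like Orm2 was highest in FS. Nearest to Hp were Itgb3, Tmem87b and Gin1, at 0.0417, 0.0658 and 0.0925. With 4 points per gene these distances describe the libraries only.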

How the data were processed

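Liver RNA of 4 pooled groups was sequenced, with 4 mice in each pool. The deposited read counts per gene were not normalized by the authors, whose processing notes name fastp 0.23.2, STAR 2.5, HTSeq 0.6.1 and build mm10. The deposited FPKM equalled those counts per listed gene length and library total (ratio 1.0000 at its lowest and highest over all 69722 values above 0). The library totals give the precision of each value, shown as counting intervals.

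Counts were scaled by TMM with R 4.3.3 and edgeR 4.0.16. Log2 ratios used a prior of 0.5 counts, exact conditional binomial (Clopper-Pearson) intervals, and genes with at least 1 CPM in 1 library. The additive model used TMM over genes with at least 1 CPM in 2 libraries, edgeR's robust quasi-likelihood test and Benjamini-Hochberg adjustment, and its code was tested on simulated data. Alternatives used DESeq2 1.42.0 and limma 3.58.1 (limma-voom). Transcript identity came from global alignment with biopython 1.88, and figures from matplotlib 3.10.9. Interaction intervals are Wald intervals from the 4 counts.

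The 10 genes and all lists were chosen with earlier results of these data known, so they are no independent support. Named genes were these 10, Saa1 and Saa2, and the 3 nearest patterns of Lcn2, Orm2 and Hp. The rule also gave, per list, the 3 genes with the largest FS against VS and FI against FS ratios among those reaching 5 CPM. Not all of these list genes are named, and Apoa2 is among those left out. Other genes were named after their values were seen. Lcn13 of the glucocorticoid list was not found, and Adgre1 was matched by identifier.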

Additional observations from a re-analysis of the deposited data

Results flagged for a closer look

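In 5 of the 10 genes the difference with IT had opposite directions in vehicle and fibril livers, with both counting intervals away from 0, as 6.61% of all 12180 genes had. By direction alone, whatever the interval, it was again 5 of the 10 and 39.5% of all genes, so the count is near that of all genes, and intervals are narrower for abundant genes such as these. These opposite directions were not tested, since each rests on 4 single libraries. The log2 ratios of VI to VS and of FI to FS were 0.97 and −0.14 for Orm1, 1.89 and −0.61 for Orm2, 0.48 and −0.17 for Orm3, and 0.92 and −0.45 for Apcs. Crp went the other way, with −0.17 and 0.18. No gene of the 10 had opposite directions with fibrils in sedentary and trained livers.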

How the results depend on the processing

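No paired analysis was possible because each group is 1 library and the labels carry no replicate numbers, and for the same reason no replicate could be left out. The largest shift of any of the 40 log2 ratios was 0.015 with DESeq2 size factors, 0.071 with total counts, 0.0792 with FPKM and a pseudocount of 0.1, and 0.343 with a pseudocount of 1. The ratio of Hpx in FI against FS reversed to −0.011 with total counts and with FPKM at either pseudocount. Under the same 3 settings no gene of the 10 exceeded 2-fold in FI against FS (0 against 1). At a threshold of 1.5-fold, 7 genes differed in VI against VS, 3 in FI against FS, 9 in FS against VS and 8 in FI against VI, where 11.7%, 13.5%, 17.5% and 14.0% of all genes did. The number of genes called for amyloidosis was 5 and became 8 without a filter on low counts, 8 without robust estimation, 9 with limma-voom, 6 with DESeq2 and 0 with amyloidosis as the only factor, a fit that counts the IT difference as error. For IT, 2 genes were called, against 0 at a minimum of 5 CPM, 1 with TMM over all listed genes (a setting chosen after seeing the data), 1 with DESeq2 and 0 with IT as the only factor. Lbp was the gene kept in both settings with 1 call. Over all genes, 585 of 11760 were called for amyloidosis, against 1519 of 19939 without a filter and 8 with the factor alone. It was 619 without robust estimation, 706 with limma-voom and 470 of 11532 with DESeq2. For IT, 174 were called over all genes, against 740 of 19939 without a filter and 0 with the factor alone. At a minimum of 5 CPM it was 82 of 8999, with DESeq2 182 of 10620 and with TMM over all listed genes 157. With IT as the only factor the changes of Orm2 and Apcs reversed to −0.25 and −0.014, and at a minimum of 5 CPM that of Crp to −0.00126, none of them called. Lcn2 passed for amyloidosis with DESeq2 (adjusted p = 2.55e-06), limma-voom (adjusted p = 0.00035), without robust estimation (adjusted p = 0.0010), at a minimum of 5 CPM (adjusted p = 0.032) and with TMM over all listed genes (adjusted p = 0.044). Orm1 and Orm2 passed with limma-voom (adjusted p = 0.015 and 0.0099) and in edgeR without robust estimation (0.0245 and 0.020). Orm1 also passed in edgeR without a filter (8.7e-13) and with TMM over all listed genes (0.049). Apcs passed in edgeR without a filter (0.010) and with limma-voom (0.036), and Crp in edgeR without a filter (0.010). None of Orm1, Orm2, Apcs and Crp passed with DESeq2. The cause of these differences was not tested. Depth limits Cd14, Lcn2 in VS and Orm2 in VS most.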
